A study of Arabidopsis thaliana with 12 samples.

Results

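The 9 genes described here belong to the tau class of glutathione transferases (GSTU) of Arabidopsis thaliana. They are the genes with a probe set that the platform annotation assigns to exactly 1 gene, with a symbol of GSTU and a number, and with a mean log2 signal over all 12 arrays above the 30th percentile (5.16, a signal of 35.7). Of the 22746 probe sets on the arrays other than Affymetrix controls, 11 carried such a symbol. GSTU16, GSTU18, GSTU20, GSTU22, GSTU23, GSTU25, GSTU26, GSTU27 and GSTU28 passed, and GSTU15 and GSTU21 did not. GSTU22 was just inside, at percentile 32.5 with a geometric mean signal of 45, and GSTU21 just outside, at percentile 28.1 with 29.7. The RefSeq gene table of assembly TAIR10.1 lists 27 genes with a GSTU symbol, and those without a named probe set are not analysed here.

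Glutathione transferases join the tripeptide glutathione to reactive or foreign molecules, which marks them for transport into the vacuole. The tau class is a large class found in plants, many of its genes stand next to each other in the genome as tandem copies, and many are known for induction by herbicides, oxidised lipids and other stress. Among the members, GSTU25 is known for acting on the explosive trinitrotoluene, GSTU26 for induction by chloroacetanilide herbicides, and GSTU20 for binding the jasmonate-conjugating enzyme JAR1 (FIN219) and for a part in aliphatic glucosinolate synthesis. For the other members the family role is all that is stated here.

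The study measured plants of ecotype Col-0 in 4 groups of 3 arrays, with 1 labelled RNA sample per array. The dissected shoot apical meristem part (SAM) was taken from plants grown on 50 µM L-AOPP with 10 nM IAA, on 50 µM L-AOPP, or on the solvent DMSO (mock, 0.1% in the series text), and undissected whole plants were taken from mock plates. L-AOPP (2-aminoxy-3-phenylpropionic acid in the series text) is described there as an inhibitor of auxin synthesis, and IAA is the natural auxin indole-3-acetic acid. The sample labels give an age of 4 days and the series text 7 days, the DMSO content of the plates with L-AOPP is not stated, and nothing says whether replicates came from separate cultures. The p-values therefore rest on a spread between samples that may be technical.

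Several measures of the arrays bear on the results. Spearman correlations were 0.982 to 0.991 within groups, 0.969 to 0.988 between SAM groups and 0.825 to 0.854 between SAM and whole plants. The 25S rRNA control read 164 on mock SAM replicate 3 and 5170 to 10331 elsewhere. The GAPDH control spots give a sign of RNA integrity, as 3' over 5' signal on the log2 scale, which was 1.29 ± 0.06 (SD, n = 3) with L-AOPP plus IAA, 1.5 ± 0.12 with L-AOPP, 1.78 ± 0.36 in mock SAM and 0.97 ± 0.03 in whole plants. As a check of the labelled tissue, the 4 measured shoot meristem and boundary genes (CLV3, PHV, UFO, LAS) were all called higher in mock SAM than in whole plants, by log2 1.78 for LAS, 2.20 for PHV, 2.16 for UFO (1.51 with a pseudocount) and 3.24 for CLV3. The size for CLV3 is not firm: it was 1.76 with the pseudocount, 2.32 with a floor, 2.07 without whole plant replicate 1 and 4.09 without whole plant replicate 2, and CLV3 was not called in a fit that includes the GAPDH ratio (2.07, adjusted p 0.281). The 5 measured photosynthesis genes were all called lower, among them PRK (-2.14), SBPASE (-2.06), LHCB4.2 (-1.37) and RCA (-1.08), and so was EXPA18 (-3.46, -2.74 with the pseudocount and -2.64 in the GAPDH fit), the only tested gene of 39 on the root list. The array is a bulk measurement, so fewer cells of a type and less RNA per cell cannot be told apart.

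In the mock SAM, GSTU20 was 3.01-fold higher than in mock whole plants, while 7 members were lower, by 1.72-fold for GSTU16 up to 41.4-fold for GSTU25, whose SAM signals were dim. This comparison asks which transcripts the dissected apex held relative to the whole plant. All values are linear probe set signals from MAS5, and calls rest on an adjusted p below 0.05 in limma over 15922 tested probe sets. Of those, 67.6% were called, 42.6% higher and 25% lower, and the median log2 difference over all of them was 0.205, against which every called member kept its direction. Members that passed the intensity filter only through whole plants had to differ, which applies to GSTU22. GSTU25 came close: its mean log2 over the 9 SAM arrays was 5.23, against the cutoff of 5.16. Its mock SAM arrays (26.4 to 33.4) were all below the cutoff signal of 35.7. The count is therefore no measure of the family. With no filter, all 11 measured GSTU genes gave 1 higher, 7 lower and 3 not called, beside 29.5% higher and 21.3% lower of all probe sets.

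GSTU20 had signals of 19546, 19094 and 21891 in mock SAM, against 6163, 6643 and 7291 in mock whole plants. The groups lay far apart, and the other SAM groups stayed on the SAM side, at 17732 to 20015. The log2 difference was 1.59 ± 0.08 (SE, 95% interval 1.43 to 1.75, adjusted p 1.15e-10).

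GSTU25 had signals of 26.4, 28.4 and 33.4 in mock SAM, against 1488, 1137 and 1051 in mock whole plants. No SAM array of any treatment exceeded 61.9. The log2 difference was -5.37 ± 0.31 (95% interval -6.03 to -4.72, adjusted p 7.51e-10), and -4.43 with a pseudocount of 28.4 added to every signal. GSTU22 had signals of 35.2, 30.7 and 29.8 in mock SAM, against 1098, 884 and 891 in mock whole plants. Its 9 SAM arrays ran from 3.7 to 46, with a median of 19.3 near the floor of 19.4 (the 20th percentile of all values), so it was bright in whole plants and dim in every dissected sample. The log2 difference was -4.90 ± 0.65 (95% interval -6.29 to -3.52, adjusted p 6.64e-06), and -4.03 with the pseudocount. GSTU22 passed the intensity filter only through whole plants and had to differ, so these values describe it and are no test. The table has no detection calls, so whether these transcripts were absent from the SAM cannot be stated.

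**Figure D1:**
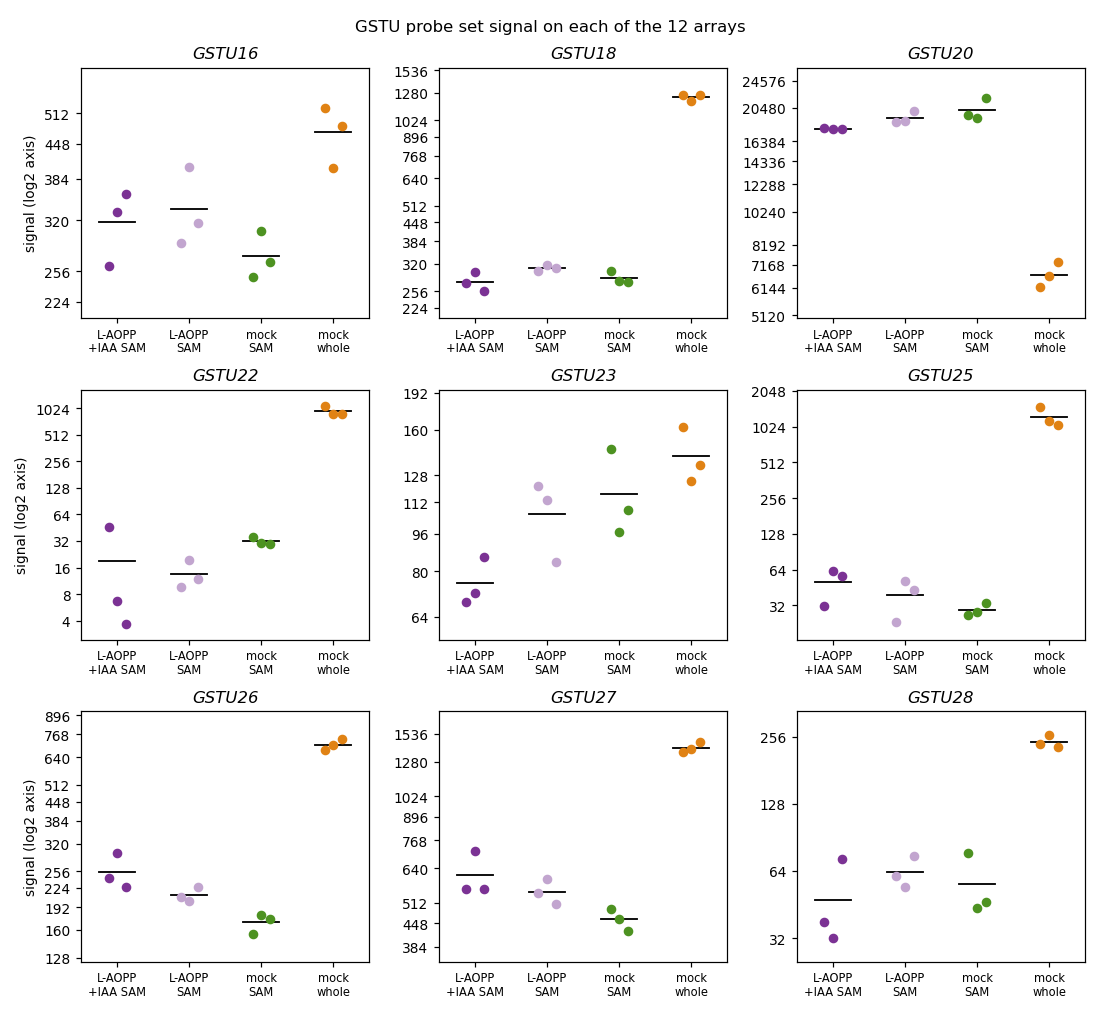
Signal of each GSTU probe set (y axis, log2 scale, a range of its own in each panel) on the 12 arrays, by group (x axis); points are arrays and bars are group means. GSTU20 sits at 17732 or above on every SAM array and at 7291 or below in whole plants. GSTU22 and GSTU25 drop to at most 61.9 in the SAM. The SAM means of GSTU25, GSTU26 and GSTU27 are highest with L-AOPP plus IAA and lowest in mock. Those of GSTU20 and GSTU23 stand in the reverse order.

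A middle set of members was lower in the SAM by 3.06-fold to 4.50-fold. GSTU28 had signals of 76.9, 43.4 and 46.5 in mock SAM, against 237, 260 and 230 in mock whole plants (log2 -2.17 ± 0.31, adjusted p 1.31e-05). GSTU18 had 302, 279 and 276 in mock SAM, against 1257, 1191 and 1259 in mock whole plants (log2 -2.11 ± 0.10, adjusted p 7.11e-11). In both genes the lowest whole plant array was well above the highest SAM array, and the spread within a group was wider for GSTU28. GSTU26 had 154, 180 and 175 in mock SAM, against 677, 705 and 743 in mock whole plants (log2 -2.06 ± 0.12, adjusted p 1.20e-09). GSTU27, the only member on chromosome 3, had 492, 461 and 426 in mock SAM, against 1361, 1396 and 1454 in mock whole plants (log2 -1.61 ± 0.11, adjusted p 3.85e-09).

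In 8 of 9 members the arrays of mock SAM and whole plants did not overlap, as held for 69.5% of all probe sets. The smallest differences were those of GSTU16 and GSTU23. GSTU16 had signals of 249, 306 and 266 in mock SAM, against 524, 403 and 485 in mock whole plants (log2 -0.78 ± 0.15, adjusted p 0.000345). Its groups did not overlap, but its call ended in a fit that includes the GAPDH ratio (log2 -0.62, adjusted p 0.148). In that fit 39.3% of all probe sets were called, against 67.6% as reported. GSTU23 had 146, 96.7 and 108 in mock SAM, against 162, 124 and 135 in mock whole plants, which overlap, and was not called (log2 -0.28 ± 0.22, 95% interval -0.74 to 0.18, adjusted p 0.267). Without any 1 of the 6 arrays, mock SAM replicate 3 included, 8 members were called, beside 63.4% to 65.4% of all probe sets. GSTU22 is in this count and among the members without overlap, and it had to differ by its selection.

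Some of the 11 measured GSTU genes stand next to each other in the genome. Only these of the 27 GSTU genes in the RefSeq table were placed, so a run may continue into genes not measured here. In the gene order of TAIR10.1, GSTU20, GSTU21, GSTU22 and GSTU23 follow each other on chromosome 1 with 0 other protein-coding genes between neighbours, and so do GSTU25 and GSTU26. Within the first run the log2 differences of mock SAM against whole plants were 1.59 for GSTU20, -4.90 for GSTU22 and -0.28 for GSTU23, of which the last was not called. The size and direction for GSTU22 were bound up with its selection, since it passed the intensity filter only through whole plants, so its difference from the other copies is a description. GSTU21, dim on all arrays (11.7 to 60), gave -0.44 ± 0.54 with no filter and was not called. Within the adjacent pair the differences were -5.37 for GSTU25 (95% interval -6.03 to -4.72) and -2.06 for GSTU26 (-2.33 to -1.80). GSTU25 was below the cutoff signal of 35.7 on every mock SAM array, so its difference from GSTU26 is likewise a description. Whether a probe set also picks up transcripts of a related copy was not tested.

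**Figure D2:**
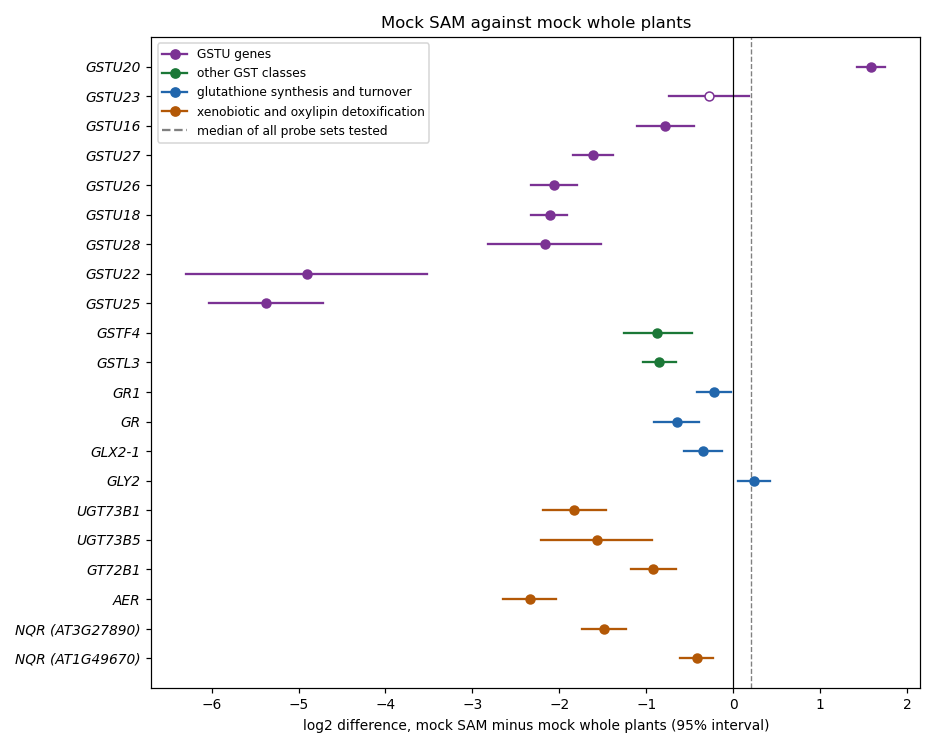
Log2 difference of mock SAM minus mock whole plants (x axis) for the 9 GSTU genes and for the measured genes of 3 related lists (rows); lines are 95% intervals, filled points were called, and the dashed line is the median of all tested probe sets (0.205). GSTU20 is alone among the GSTU genes to the right of 0, GSTU23 is open, and the 6 detoxification probe sets all lie to the left.

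Other genes that use glutathione or handle foreign compounds moved less or the same way as the lower members. Over all tested probe sets 25% were called lower and 42.6% higher in this comparison. Of 25 genes of other glutathione transferase classes 2 were measured, and both were called lower in mock SAM. GSTF4, of the phi class, averaged 126 ± 27.6 (SD, n = 3) in mock SAM and 227 ± 14.3 in mock whole plants (log2 -0.87 ± 0.19). GSTL3, of the lambda class, averaged 1570.0 ± 204 in mock SAM and 2819 ± 132 in mock whole plants (log2 -0.85 ± 0.09). Of the list on glutathione synthesis and turnover 4 of 22 genes were measured, 3 lower and 1 higher. The glutathione reductase genes GR (-0.65 ± 0.12) and GR1 (-0.22 ± 0.09, adjusted p 0.0367) and the glyoxalase gene GLX2-1 (-0.35 ± 0.10) were lower, and the glyoxalase gene GLY2 was higher (0.24 ± 0.08, adjusted p 0.0178), close to the median of all probe sets. With each array centred on its median GLY2 was at 0.11 and not called (adjusted p 0.294), nor was it called without mock SAM replicate 1 (0.058) or 2 (0.0726) or whole plant replicate 2 (0.0821). All 6 measured probe sets of the detoxification list were called lower, with a list median of -1.53: AER, for an alkenal reductase, was 5.08-fold lower (-2.34 ± 0.15), the glucosyltransferase genes UGT73B1 and UGT73B5 were lower by log2 -1.83 ± 0.17 and -1.57 ± 0.30, and the quinone reductase gene NQR (AT3G27890) by -1.49 ± 0.12. In the fit that includes the GAPDH ratio UGT73B1 was at -1.24 and still called, while the calls of GSTF4 (adjusted p 0.382), GR1 (0.749), GLX2-1 (0.148) and UGT73B5 (0.299) ended, and that of GR1 also ended without mock SAM replicate 1 or 3 and without whole plant replicate 1 or 2 (adjusted p 0.0631 to 0.127), after quantile normalization (0.0809), with only the 2 groups compared (0.0569) and without the trend (0.066). The GAPDH fit called 39.3% of all probe sets in this comparison, against 67.6% as reported. The lists on glutathione peroxidases and on ABCC transporters had 0 measured genes.

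Markers of other tissue moved with this comparison. The summed signal of the 2 root list probe sets was 44.3 to 57.4 in mock SAM and 574 to 786 in mock whole plants, and that of the 5 photosynthesis probe sets was 42212 to 44303 in mock SAM and 101994 to 117324 in mock whole plants. Within the SAM, the sum of the 4 shoot meristem and boundary probe sets was 1344 to 1389 with L-AOPP and 1534 to 2021 in mock. With L-AOPP plus IAA it was 1462 to 1786. The photosynthesis sum was 39291 to 41505 with L-AOPP and 39170.0 to 43688 with L-AOPP plus IAA. The root sum with L-AOPP, 15.9 to 65.5, overlapped that of mock SAM. No gene of these lists was called within the SAM. The part of the markers in the GSTU differences was not tested.

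In SAM from L-AOPP plates against mock SAM, a comparison for the inhibitor's effect, no GSTU member was called (0 of 9, limma, beside 2.56% of all probe sets). At an unadjusted p below 0.05 there were 2 of 9, GSTU26 and GSTU27, beside 16.8% of all probe sets. The log2 differences had a median of 0.22, against -0.006 over all probe sets, and ran from -1.29 for GSTU22 to 0.35 for GSTU25. GSTU26 had signals of 208, 201 and 225 with L-AOPP, against 154, 180 and 175 in mock SAM. The groups did not overlap, as held for 22.8% of all probe sets, and the difference did not pass (log2 0.32 ± 0.12, 95% interval 0.05 to 0.58, adjusted p 0.199). GSTU27 had 546, 599 and 506 with L-AOPP, against 492, 461 and 426 in mock SAM, again apart and not called (0.26 ± 0.11, adjusted p 0.233).

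GSTU20, the member raised in the apex, had 18637, 18714 and 20015 with L-AOPP, against 19546, 19094 and 21891 in mock SAM. These overlapped, and the 95% interval of the log2 difference, -0.24 to 0.09, corresponds to a ratio of 0.849 to 1.06. GSTU22 had 9.7, 19.3 and 11.7 with L-AOPP, all below the floor of 19.4, against 35.2, 30.7 and 29.8 in mock SAM. The L-AOPP arrays were all lower, but the difference did not pass (-1.29 ± 0.65, adjusted p 0.333), and with the floor it was -0.71. GSTU25 had 23.3, 51.6 and 43.1 with L-AOPP, against 26.4, 28.4 and 33.4 in mock SAM, with the L-AOPP arrays on either side of the mock ones (0.35 ± 0.31, adjusted p 0.617). GSTU16 (0.29 ± 0.15), GSTU28 (0.22 ± 0.31), GSTU18 (0.12 ± 0.10) and GSTU23 (-0.13 ± 0.22) had adjusted p-values of 0.364 to 0.81.

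Of the related lists, UGT73B1 of the detoxification list was called higher with L-AOPP. It had signals of 279, 388 and 326 with L-AOPP, against 202, 224 and 140 in mock SAM (log2 0.82 ± 0.17, adjusted p 0.0232). The call ended without L-AOPP replicate 2 or 3 (adjusted p 0.113 and 0.0683), without mock SAM replicate 1 or 3 (0.0586 and 0.0778), in a fit that omits the intensity trend (0.0716) and in one that includes the GAPDH ratio (0.203). In these fits 0.295% to 1.02% of all probe sets were called, against 2.56% as reported. GSTL3 (0.16 ± 0.09), GLY2 (0.24 ± 0.08, adjusted p 0.152) and GR1 (0.10 ± 0.09) did not pass, nor did any other gene of the 3 related lists.

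Adding IAA to L-AOPP was compared with L-AOPP alone, for the effect of auxin, and again 0 of 9 members were called (limma, beside 0.86% of all probe sets). GSTU23 alone had an unadjusted p below 0.05, beside 10.7% of all probe sets. It had 68.6, 71.8 and 85.9 with L-AOPP plus IAA, against 122, 114 and 83.7 with L-AOPP, which overlap on a single pair of arrays (log2 -0.48 ± 0.22, adjusted p 0.43). GSTU20 had 17860, 17771 and 17732 with L-AOPP plus IAA, against 18637, 18714 and 20015 with L-AOPP. The groups did not overlap, as for 18.4% of all probe sets, and the difference was small and not called (-0.10 ± 0.08, adjusted p 0.704). GSTU26 had 242, 296 and 225.4 with L-AOPP plus IAA, against 208, 201 and 225.2 with L-AOPP, so that the groups only just failed to overlap (0.26 ± 0.12, adjusted p 0.475).

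GSTU18 had 274, 300.0 and 257 with L-AOPP plus IAA, against 302, 317 and 309 with L-AOPP (-0.16 ± 0.10, adjusted p 0.616). GSTU28 had 37.8, 32 and 72.2 with L-AOPP plus IAA, against 60.4, 54.1 and 74.6 with L-AOPP (-0.49 ± 0.31, adjusted p 0.634). The first pair of groups did not overlap and the second did. GSTU25 (0.37 ± 0.31), GSTU27 (0.15 ± 0.11) and GSTU16 (-0.08 ± 0.15) had adjusted p-values of 0.705 to 0.915. GSTU22 was at -0.32 ± 0.65 and had the other sign, 0.42, with the floor; its signals with L-AOPP plus IAA were 46, 6.6 and 3.7, so that replicate 1 stood apart from the other two. In the related lists GSTF4 (0.43 ± 0.19, adjusted p 0.403), GT72B1 (-0.30 ± 0.12), AER (0.27 ± 0.15), GR (-0.16 ± 0.12) and GLX2-1 (0.04 ± 0.10) did not pass, and no gene of these lists was called.

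**Figure D3:**
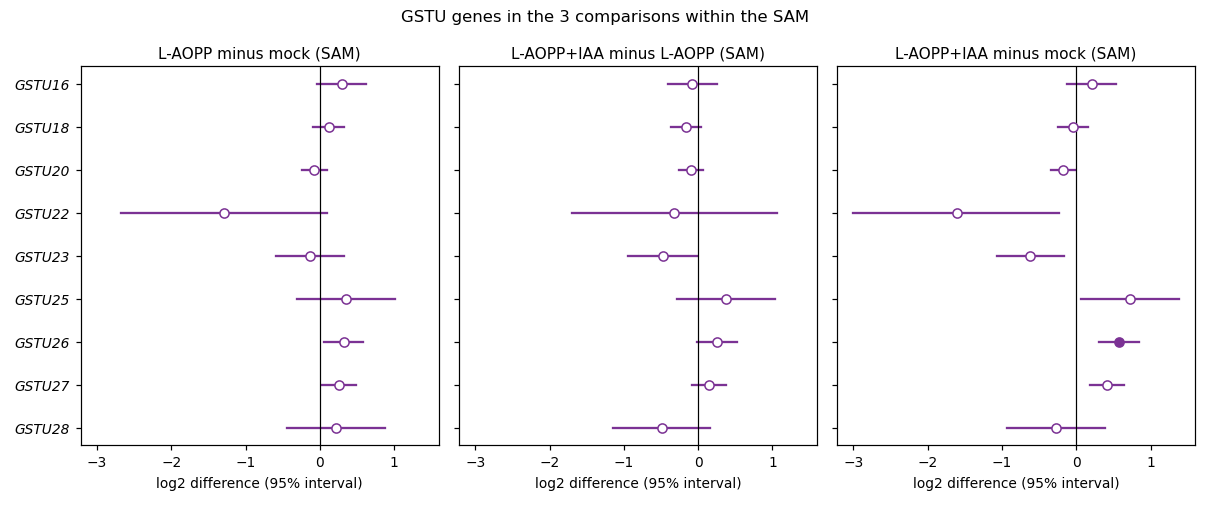
Log2 differences of the 9 GSTU genes (rows) in the 3 comparisons within the SAM (panels); lines are 95% intervals and filled points were called. GSTU26 in L-AOPP plus IAA minus mock (0.58) is the filled point, and the widest intervals are those of GSTU22, which was dim in the SAM.

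L-AOPP plus IAA against mock gave the single call within the SAM: GSTU26 was 1.49-fold higher (1 of 9 called, beside 3.04% of all probe sets, 1.22% higher and 1.82% lower). It had signals of 242, 296 and 225 with L-AOPP plus IAA, against 154, 180 and 175 in mock SAM. All arrays with L-AOPP plus IAA were above all mock SAM arrays, as held in either direction for 20.8% of all probe sets (log2 0.58 ± 0.12, 95% interval 0.31 to 0.84, adjusted p 0.0239). It remained far below the 677 to 743 of whole plants. The call did not hold throughout: over 17 alternatives the log2 difference ran from 0.46 to 0.66 and the adjusted p from 0.0218 to 0.507, with 12 of 17 called. It ended without L-AOPP plus IAA replicate 2 (adjusted p 0.0982), without mock SAM replicate 1 (0.0759) or 3 (0.053), with only these 2 groups in the fit (0.119) and in a fit that includes the GAPDH ratio (log2 0.54, adjusted p 0.507). In these fits 1.44% of all probe sets or fewer were called, against 3.04% as reported. The share was 0.842% with only these 2 groups and 0.044% in the GAPDH fit. The GAPDH ratio moved with this comparison, at 1.24 to 1.36 with L-AOPP plus IAA and 1.39 to 2.1 in mock SAM.

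GSTU27 lay at the threshold. It had 561, 715 and 561 with L-AOPP plus IAA, against 492, 461 and 426 in mock SAM, and the groups did not overlap (log2 0.41 ± 0.11, 95% interval 0.18 to 0.64, adjusted p 0.0556). It was called in 1 of 17 alternatives, with the lowest 50% of probe sets left out (adjusted p 0.0489). In both genes the means stood in the same order, with L-AOPP plus IAA above L-AOPP above mock SAM: 254, 212 and 170 for GSTU26, and 612, 550 and 460 for GSTU27. GSTU25 had this order too (50.1, 39.3 and 29.4). GSTU20 (17788, 19122 and 20177) and GSTU23 (75.4, 106 and 117) had the reverse order. Between neighbours in either order no difference was called. The comparisons share arrays, so these differences are not independent of each other. The mean GAPDH ratio was also ordered over these groups, at 1.29 with L-AOPP plus IAA, 1.5 with L-AOPP and 1.78 in mock SAM. Its part in the orders was not tested, and how many of all probe sets have either order was not counted.

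**Figure D4:**
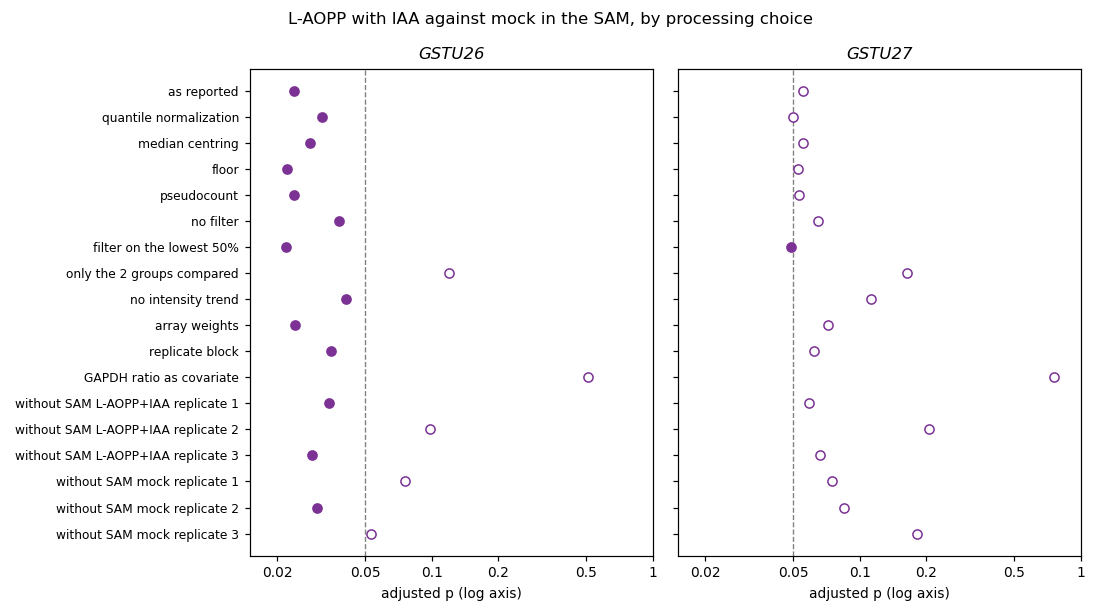
Adjusted p (x axis, log scale) of GSTU26 and GSTU27 (panels) for L-AOPP plus IAA against mock in the SAM, as reported and under 17 alternatives (rows); the dashed line is 0.05 and filled points were called. GSTU26 was called under 12 of 17 alternatives and GSTU27 under 1 of 17, with the largest adjusted p for each in the fit that includes the GAPDH ratio.

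The other members were not called, although 6 of 9 in all had an unadjusted p below 0.05, beside 18.0% of all probe sets. GSTU23 had 68.6, 71.8 and 85.9 with L-AOPP plus IAA, against 146, 96.7 and 108 in mock SAM, all lower but short of the threshold (log2 -0.62 ± 0.22, adjusted p 0.139). GSTU25 had 31.7, 61.9 and 56.8 with L-AOPP plus IAA, against 26.4, 28.4 and 33.4 in mock SAM, overlapping on 1 array (0.72 ± 0.31, adjusted p 0.236). GSTU20 was at 17732 to 17860 with L-AOPP plus IAA, below the 19094 to 21891 of mock SAM (-0.18 ± 0.08, adjusted p 0.226). GSTU22 was at -1.61 ± 0.65 (adjusted p 0.203) and at -0.30 with the floor. Without L-AOPP plus IAA replicate 1, the brightest of its 3, it was called lower (-2.69, adjusted p 0.00201), with its remaining arrays at 6.6 and 3.7, below the floor. GSTU16 (0.21 ± 0.15), GSTU28 (-0.28 ± 0.31) and GSTU18 (-0.05 ± 0.10) had adjusted p-values of 0.521 to 0.856.

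On the detoxification list 2 of 6 probe sets were called higher with L-AOPP plus IAA than in mock SAM. Over all tested probe sets 1.22% were called higher. AER had 264, 396 and 313 with L-AOPP plus IAA, against 195, 210 and 176 in mock SAM (log2 0.73 ± 0.15, adjusted p 0.0157). UGT73B1 had 368, 279 and 301 with L-AOPP plus IAA, against 202, 224 and 140 in mock SAM (0.76 ± 0.17, adjusted p 0.0308). In both genes the groups did not overlap. The AER call ended without L-AOPP plus IAA replicate 2 (0.0673) and without mock SAM replicate 3 (0.0687), with only the 2 groups compared (0.0741) and without the trend (0.0514), and the UGT73B1 call without L-AOPP plus IAA replicate 1 or 3 (0.0912 and 0.0601) and without mock SAM replicate 1 or 3 (0.0536 and 0.109), with only the 2 groups compared (0.0955), without the trend (0.0852) and with array weights (0.0514). In the fit that includes the GAPDH ratio neither was called (AER 0.54, adjusted p 0.592, and UGT73B1 0.40, adjusted p 0.811). Of all probe sets 0.044% were called in that fit and 0.842% with only the 2 groups compared, against 3.04% as reported. GSTF4 (0.32 ± 0.19), GLY2 (0.26 ± 0.08, adjusted p 0.104) and GR (-0.18 ± 0.12) did not pass.

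Across the 12 arrays the members varied together, apart from GSTU20. Pairwise Pearson correlations of log2 signal over 36 pairs of members had a median of 0.815 and ran from -0.98 to 0.98, and every pair with GSTU20 was negative (-0.98 to -0.56). These arrays share the contrast of tissue. Over the 9 SAM arrays alone the median was 0.01, with GSTU26 and GSTU27 the most alike (0.81) and GSTU23 and GSTU26 the least (-0.84). Among 8774 other named probe sets, those most like GSTU20 over 12 arrays were AT3G17680 (r = 0.997), HLL (0.997), for a mitochondrial ribosomal protein, and AT4G30020 (0.996). Over the 9 SAM arrays they were AT3G45090 (0.959), EXPA4 (0.95), for an expansin, and AT5G45530 (0.949). Those most like GSTU25 over 12 arrays were AT1G22690 (0.992), SBPASE (0.99), of the Calvin cycle, and AT3G20370 (0.99). Over the 9 SAM arrays they were AT1G53060 (0.936), AT2G32340 (0.928) and AT4G32120 (0.911), with GSTU25 itself between 23.3 and 61.9 on those arrays. These correlations describe 12 or 9 arrays that share their groups and carry no test.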

How the data were processed

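Total RNA of 12 samples was measured on Affymetrix arrays. Each deposited value is the linear intensity of a probe set. Per the submitters' processing notes they come from MAS5, with no version given. The authors' intensity values were already on a common scale: the mean after leaving out the lowest and highest 2% was 500.0 to 500.1 on each array. The table has no detection calls, and 3 arrays per group limit the precision.

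Signals were not rescaled before log2 was taken. The 64 control probe sets and the 6824 dimmest (mean log2 at or below the 30th percentile) were left out, and 15922 were tested with limma 3.58.1 in R 4.3.3 (1 coefficient per group over all 12 arrays, 8 residual degrees of freedom, eBayes with an intensity trend, two-sided). P-values were adjusted by Benjamini-Hochberg over all 15922, and the script was tested on simulated data. Printed signals are of single arrays, or means ± SD of 3. Names come from the platform annotation, which can be old: 13513 probe sets have 1 gene and 8730 are not listed. Symbols, loci and gene order were matched through the RefSeq table of TAIR10.1.

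The members, lists and tests were chosen with earlier results of these data known. All members are named. Of each related list up to 4 called genes with the largest difference are named, or the 2 with the smallest p (1 where at most 2 were measured). Marker lists are named for SAM against whole plants only. Each gene had up to 17 alternatives: quantile normalization, median centring, a floor, a pseudocount, array weights, a fit of the compared pair of groups alone, all probe sets kept, the dimmest 50% left out, no intensity trend, a replicate block, the GAPDH ratio as a term, and each of the 6 arrays of a comparison left out. Those that changed a result are given beside it or in the closing section. Correlations of deviations between same-numbered replicates were -0.188 to 0.105. The labels do not state that the numbers pair the samples, and these correlations cannot settle it.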

Additional observations from a re-analysis of the deposited data

How the results depend on the processing

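Of 596 repeats of the 36 GSTU differences, 578 kept both direction and side of the threshold. Most of these repeats were of differences not called at the start: 9, 9, 8 and 1 of 9 members in the 4 comparisons. The single call within the SAM, that of GSTU26, held in 12 of 17. In L-AOPP plus IAA against mock, where 1 member was called, 2 were called with the lowest 50% of probe sets left out (5 members tested, beside 3.98% of all probe sets). With only the 2 groups compared 0 were called (beside 0.842%), and 0 in a fit that includes the GAPDH ratio (beside 0.044%). When 1 replicate was left out 0 to 2 were called, beside 1.06% to 3.34% of all probe sets. In mock SAM against whole plants 5 of the 5 members left by the 50% filter were called, beside 73.9% of all probe sets, against 8 of 9, because fewer members were tested. Signs turned only in differences that were not called: GSTU23 in L-AOPP against mock to 0.03 without L-AOPP replicate 3 and 0.04 without mock SAM replicate 1 (-0.26 to 0.04 over all replicates left out); GSTU22 in L-AOPP plus IAA against L-AOPP to 0.42 with the floor, 0.07 with the pseudocount of 28.4, 0.01 and 0.42 on omitting replicate 2 or 3 of L-AOPP plus IAA (range -1.39 to 0.42); GSTU16 there to 0.05 on omitting replicate 1 of L-AOPP plus IAA and 0.06 on omitting replicate 2 of L-AOPP (range -0.19 to 0.06); GSTU28 in L-AOPP plus IAA against mock to 0.06 in the GAPDH fit; and GSTU18 there to 0.01 on omitting replicate 3 of L-AOPP plus IAA (range -0.10 to 0.01). The causes were not tested. With the replicate number as a block (replicate block) 0, 0, 1 and 8 members were called in the 4 comparisons, as without it, and GSTU26 had an adjusted p of 0.0351. Of all probe sets 1.8%, 0.628%, 2.24% and 66.9% were called with the block. Over all probe sets, called counts went from 408 to between 47 and 586 for L-AOPP against mock, from 137 to between 23 and 240 for L-AOPP plus IAA against L-AOPP, from 484 to between 7 and 531 for L-AOPP plus IAA against mock, and from 10760 to between 6256 and 11563 for mock SAM against whole plants. Dim signals limit GSTU22 and GSTU25 in the SAM.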
